A study of Mus musculus with 2 samples.

Results

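The HOX genes are the homeobox transcription factor genes of the Hoxa, Hoxb, Hoxc and Hoxd clusters. Members were chosen by symbol, with no measured value used, and the deposited table of 24862 gene entries listed 30 of them. There were 10 in Hoxa, 9 in Hoxb, 6 in Hoxc and 5 in Hoxd. RNA was sequenced from GFP+ cells sorted out of inguinal white fat, a subcutaneous depot, from the stromal vascular fraction after collagenase digestion. One library came from Sox9 PreASKO mice, also titled KO, and 1 from Sox9 floxed mice, also titled WT. In both groups the mice were male, 3 weeks old and given doxycycline at postnatal day 1, and the stromal cells were stained for PDGFRa. The design text calls the GFP+ cells Pref-1+ and speaks of 6 pooled mice without saying whether that is per genotype. The labels do not name the driver of the recombinase or of GFP, nor the floxed exons. With 1 library per group there is no replicate check and no test between genotypes, so values are described.

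HOX proteins bind DNA through the homeodomain and give cells their position along the head-to-tail axis of the embryo. The 4 mammalian clusters arose by duplication, so genes of the same number (a paralogue group) are the closest relatives across clusters. Low numbers are transcribed nearer the head and high numbers nearer the tail. Adult fibroblasts and adipose precursors keep a HOX pattern that reflects the site they came from. In mouse fat, Hoxc9 is known for higher expression in subcutaneous depots and Hoxa5 and Hoxc8 for higher expression in intra-abdominal depots. Only the inguinal depot was sampled here, so depots cannot be compared.

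The PreASKO library held 29172654 counts and the floxed library 37705238, each the sum of raw and repeat-distributed counts over all listed genes. Levels are given as CPM, the count divided by that total and multiplied by 1000000, and ratios are PreASKO over floxed. Parentheses hold exact 95% ranges for counting error alone. The ranges treat repeat-distributed counts, which are estimates, as if they were counted reads, and do not cover the error of that distribution. Sox9, the targeted gene, had 73 counts (2.50 CPM) in PreASKO cells and 228 counts (6.05 CPM) in floxed cells, a ratio of 0.414 (0.313 to 0.541). This sums the whole gene, including any exon that remains after recombination, and is a partial check of the labels, by library totals only. Dlk1, which encodes Pref-1, had 24.0 CPM in PreASKO cells and 28.2 CPM in floxed cells.

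The cells that the libraries came from differed in their marker genes. The 14 stroma markers, led by the fibrillar collagens, summed to 22118 CPM in PreASKO cells and 38406 CPM in floxed cells, and all 14 were lower in PreASKO. The 9 mesothelium markers summed to 4.94 CPM in PreASKO cells, where the uroplakin gene Upk1b was at 0, and 176.5 CPM in floxed cells. The 8 listed macrophage markers summed to 15100 CPM in PreASKO cells and 10257 CPM in floxed cells, and all 8 were higher in PreASKO. Granulocyte markers summed to 70.4 CPM in PreASKO cells and 5.36 CPM in floxed cells. Mural markers summed to 249 CPM in PreASKO cells and 411 CPM in floxed cells. The 3 adipocyte markers summed to 1180 CPM in PreASKO cells and 1484 CPM in floxed cells, and all 3 were lower in PreASKO. Endothelium markers summed to 732 CPM in PreASKO cells and 651 CPM in floxed cells, but of the 5, 2 were lower and 3 higher in PreASKO. The largest rise among these 5 was at Vwf, with 198 CPM in PreASKO cells and 117 CPM in floxed cells. The part of these marker differences in the HOX values was not tested. HOX values are therefore also given relative to the stroma sum. That scaling adds 0.80 to every log2 ratio, so that the median over all genes with 20 or more counts is 0.75 in place of -0.051. It adds as much to Sox9 and Dlk1. By library totals their log2 ratios were -1.27 (-1.67 to -0.89) for Sox9 and -0.23 (-0.37 to -0.095) for Dlk1.

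Together the 30 HOX genes made up 56.9 CPM (54.2 to 59.7) in PreASKO cells and 70.6 CPM (67.9 to 73.3) in floxed cells, a ratio of 0.806 (0.758 to 0.857) that turned to a log2 ratio of 0.48 when scaled to stroma. In bulk RNA, fewer cells of a type and less RNA per cell cannot be told apart. Hoxc was the most abundant cluster, with 44.3% of HOX counts in PreASKO cells and 47.7% in floxed cells, and Hoxb the least, with 6.33% in PreASKO cells and 7.85% in floxed cells. The share of Hoxd was 27.5% in PreASKO cells and 18.8% in floxed cells. The sums of 3 clusters were lower in PreASKO, at a ratio of 0.689 (0.605 to 0.783) for Hoxa, 0.649 (0.509 to 0.825) for Hoxb and 0.748 (0.682 to 0.820) for Hoxc, and these turned to log2 ratios of 0.26, 0.17 and 0.38 when scaled to stroma. Hoxd was higher, at a ratio of 1.18 (1.04 to 1.34), but its log2 ratio was -0.054 in repeat-distributed counts alone. With totals that leave out mitochondrial and haemoglobin genes the log2 ratio of Hoxd was 0.18 (-0.0034 to 0.37), which holds equal levels, and without Hoxd9 its ratio was 1.02 (0.889 to 1.18).

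**Figure D1:**
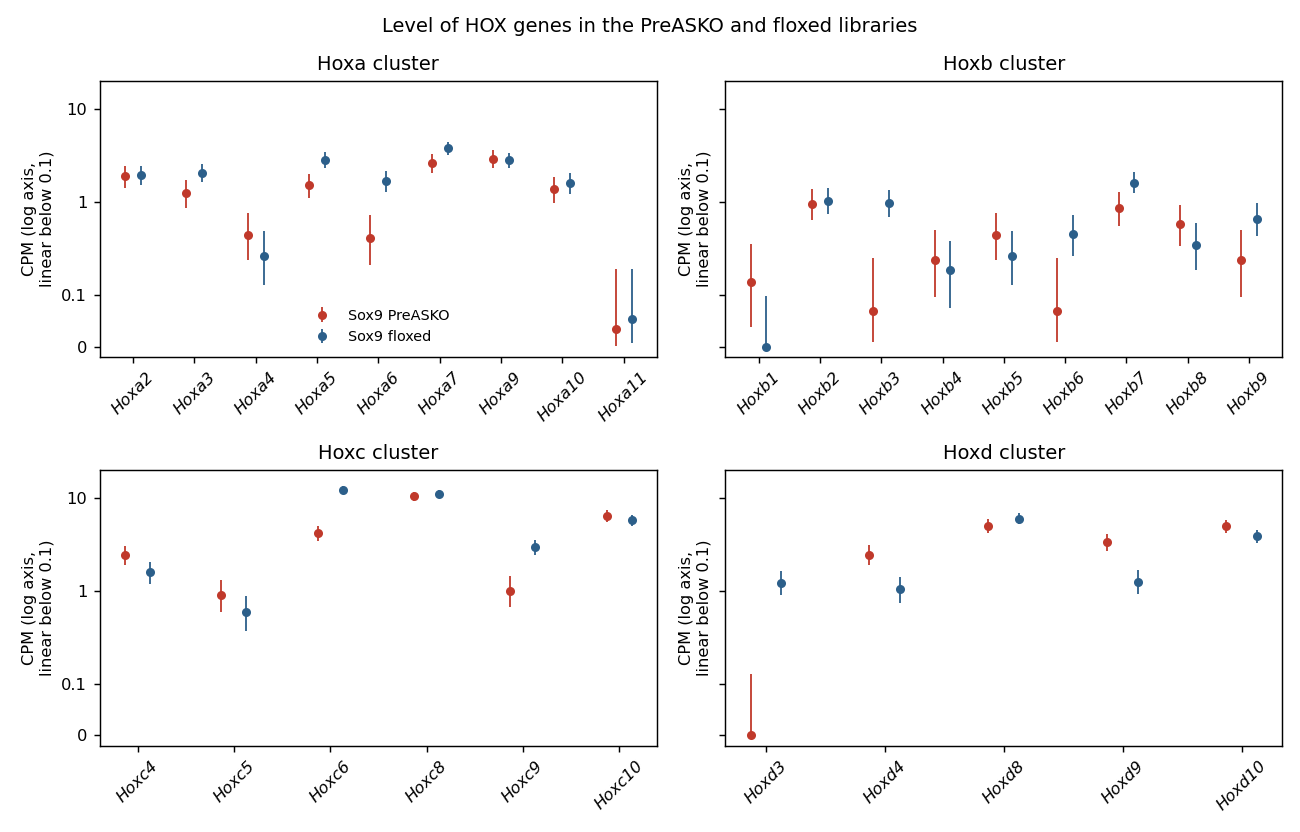
Each panel plots the level of genes of 1 HOX cluster in CPM, on an axis that is logarithmic above 0.1 and linear below it, with PreASKO in red left of floxed in blue and bars for exact 95% counting intervals. Hoxc8 stands at 10.4 CPM in PreASKO cells and 10.9 CPM in floxed cells, while Hoxc6 stands at 4.15 CPM in PreASKO cells and 12.01 CPM in floxed cells.

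The Hoxc cluster lies on chromosome 15, with its listed genes between 102966796 and 103036856 in GRCm38. Hoxc8, known for its role in thoracic patterning and as a repressor of brown fat differentiation, had 303 counts (10.4 CPM) in PreASKO cells and 412 counts (10.9 CPM) in floxed cells. Its ratio was 0.951 (0.817 to 1.11), so by library totals the libraries did not differ beyond counting error, while its log2 ratio scaled to stroma was 0.72 (0.50 to 0.94). Hoxc10, a lumbar and hindlimb gene known to restrain browning of subcutaneous fat, had 186 counts (6.38 CPM) in PreASKO cells and 214 counts (5.68 CPM) in floxed cells, a ratio of 1.12 (0.918 to 1.37) that holds equal levels by library totals and a log2 ratio of 0.96 (0.67 to 1.25) scaled to stroma. All counts of both genes are raw, and 8.70% of the exonic bases of Hoxc10 are also exonic in Hoxc5, so a part of its reads could belong to either.

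Other members of the cluster were far apart in the libraries. Hoxc6, a gene of lower neck and thoracic patterning, had 121 counts (4.15 CPM) in PreASKO cells and 453 counts (12.01 CPM) in floxed cells. It was the HOX gene with the most counts in the floxed library and was 2.90-fold lower in PreASKO, with a ratio of 0.345 (0.280 to 0.423). Nearly all of its counts, 98.6%, were repeat-distributed, and its raw counts were 3 in PreASKO cells and 5 in floxed cells. Hoxc9, a thoracic gene that marks subcutaneous fat in mice, had 29 counts (0.994 CPM) in PreASKO cells and 110 counts (2.92 CPM) in floxed cells, all raw, a ratio of 0.341 (0.218 to 0.517). Scaled to stroma, the log2 ratios of Hoxc6 and Hoxc9 were -0.74 and -0.76, still lower in PreASKO. Without Hoxc6 the rest of the cluster had a ratio of 0.971 (0.873 to 1.08).

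The head-side end of Hoxc ran the other way. Hoxc4 had 70 counts (2.40 CPM) in PreASKO cells and 59 counts (1.56 CPM) in floxed cells, a ratio of 1.53 (1.07 to 2.21). All counts of Hoxc4 were repeat-distributed. Hoxc5 had 26 counts (0.891 CPM) in PreASKO cells and 22 counts (0.583 CPM) in floxed cells, a ratio of 1.53 whose interval of 0.832 to 2.83 holds equal levels. Along the cluster, therefore, the ratio was above 1 at Hoxc4 and Hoxc5, low at Hoxc6, near 1 at Hoxc8, low at Hoxc9 and near 1 at Hoxc10.

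**Figure D2:**
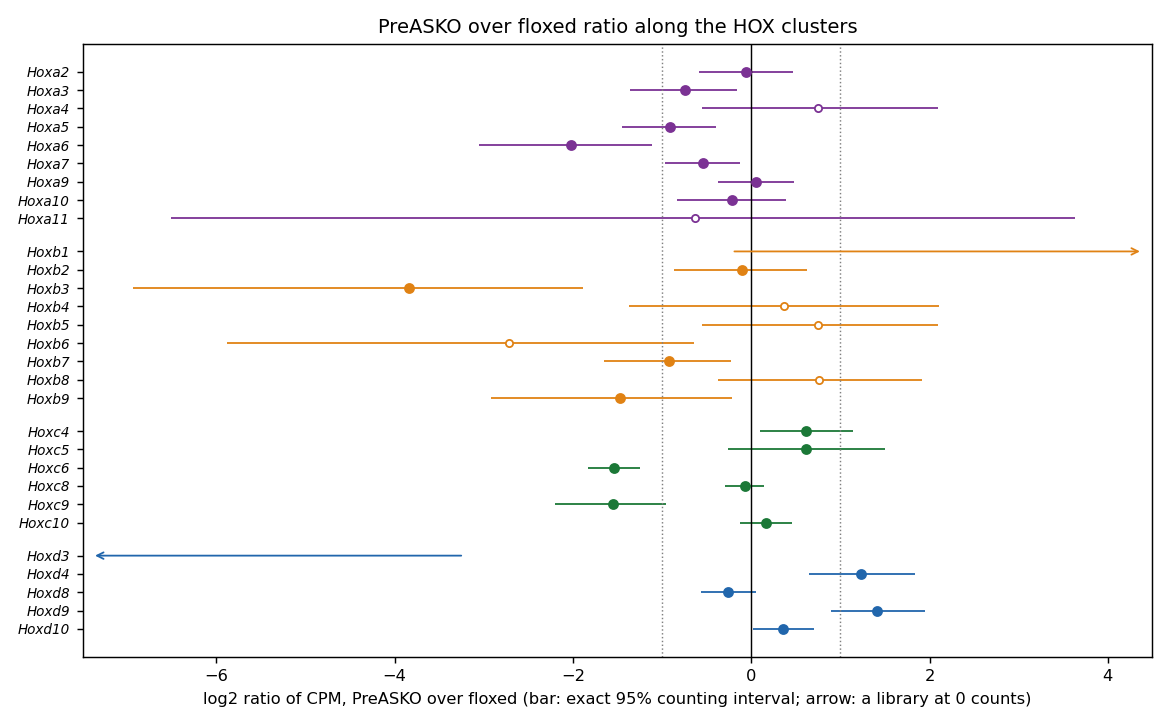
Points are the log2 ratio of CPM, PreASKO over floxed, for HOX genes in cluster order from the head-side to the tail-side member, with exact 95% counting intervals, open points for genes under 20 counts, and arrows from the limit of the interval where a library is at 0. Dotted lines mark 2-fold. Low and near-equal ratios alternate along Hoxc, and scaling to stroma would move every point right by 0.80.

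The Hoxd cluster on chromosome 2, with its listed genes between 74684273 and 74748271, held both HOX genes with 20 or more counts that were more than 2-fold higher. Hoxd9, a gene of limb and lumbar patterning, had 97 counts (3.33 CPM) in PreASKO cells and 47 counts (1.25 CPM) in floxed cells, a ratio of 2.67 (1.86 to 3.86). Hoxd4, which patterns the neck vertebrae, had 71 counts (2.43 CPM) in PreASKO cells and 39 counts (1.03 CPM) in floxed cells, a ratio of 2.35 (1.57 to 3.57). All counts of both genes are raw. Next to Hoxd4, Hoxd3, which acts in the formation of the uppermost neck vertebrae, had 0 counts in PreASKO cells, with an exact upper limit of 0.126 CPM, and 46 counts (1.22 CPM) in floxed cells. By the exact interval it was at least 9.27-fold lower in PreASKO, and with a floor of 3 counts (0.103 CPM) in place of 0 the value is 11.9.

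Hoxd3 and Hoxd4 were the only pair, of 26 pairs of listed neighbours within clusters, whose intervals lay on opposite sides of equal levels. In GENCODE M21, which uses the same build, 62.3% of the exonic bases of Hoxd3 and 52.3% of those of Hoxd4 are also exonic in another gene on the same strand. Most of this is Gm28230, whose transcript spans both genes, and 9.26% of the exonic bases of Hoxd3 are shared with Hoxd4 itself, so the division of reads between them is uncertain. Summed, the pair had 71 counts in PreASKO cells and 85 in floxed cells, a ratio of 1.08 (0.777 to 1.497) that holds equal levels by library totals. Scaled to stroma, the log2 ratio of this sum was 0.91 (0.43 to 1.38), above equal levels. The other Hoxd genes differed less. Hoxd8 had 145 counts (4.97 CPM) in PreASKO cells and 224 counts (5.94 CPM) in floxed cells, a ratio of 0.837 (0.674 to 1.04). Hoxd10, active in lumbar motor neurons and the limb, had 143 counts (4.90 CPM) in PreASKO cells and 144 counts (3.82 CPM) in floxed cells, a ratio of 1.28 (1.01 to 1.63) whose interval holds equal levels when mitochondrial and haemoglobin genes leave the totals. Repeat-distributed counts made up 99.2% of the counts of Hoxd8 and 97.9% of those of Hoxd10.

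The 250 bases before the annotated start are shown for 4 genes with ratios past 2-fold, the neighbours Hoxd3 and Hoxd4, Hoxd9 as the gene with the highest ratio among those with 20 or more counts, and Hoxa6, described below. They are from RefSeq on GRCm38.p6, read 5′ to 3′ on the gene's strand, and capitals mark a match to one of the motifs searched. The Hoxd windows are on the plus strand at chr2:74711743-74711992, chr2:74721728-74721977 and chr2:74697513-74697762, and the Hoxa6 window is on the minus strand at chr6:52208673-52208922.
Hoxd3: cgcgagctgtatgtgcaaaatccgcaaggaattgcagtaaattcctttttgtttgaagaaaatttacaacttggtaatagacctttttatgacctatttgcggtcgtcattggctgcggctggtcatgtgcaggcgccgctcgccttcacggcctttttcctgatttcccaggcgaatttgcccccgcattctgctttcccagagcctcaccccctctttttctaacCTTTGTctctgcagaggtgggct
Hoxd4: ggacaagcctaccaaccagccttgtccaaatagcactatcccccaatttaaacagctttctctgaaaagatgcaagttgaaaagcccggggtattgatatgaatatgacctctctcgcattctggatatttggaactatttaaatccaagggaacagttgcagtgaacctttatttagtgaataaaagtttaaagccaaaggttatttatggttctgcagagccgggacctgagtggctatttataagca
Hoxd9: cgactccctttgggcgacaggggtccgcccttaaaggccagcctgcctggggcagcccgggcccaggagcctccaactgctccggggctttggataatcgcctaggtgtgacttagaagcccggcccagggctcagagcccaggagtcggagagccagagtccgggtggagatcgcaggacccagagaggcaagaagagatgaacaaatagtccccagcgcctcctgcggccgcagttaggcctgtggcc
Hoxa6: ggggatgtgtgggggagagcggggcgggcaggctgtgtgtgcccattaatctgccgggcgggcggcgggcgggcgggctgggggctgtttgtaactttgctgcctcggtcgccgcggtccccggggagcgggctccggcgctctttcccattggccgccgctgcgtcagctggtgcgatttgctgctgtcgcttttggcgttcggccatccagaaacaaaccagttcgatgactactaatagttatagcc

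The 4 motifs searched on both strands were the SOX core as ACAAAG and as ACAATG, the MEIS and PKNOX core TGACAG, and the joint PBX and HOX site TGATTNAT. Of the windows shown, that of Hoxd3 holds 1 match, to ACAAAG, read as CTTTGT on the strand printed. The other windows hold none, so no matches overlap there. Among the 18 windows of the 17 listed HOX genes with an entry, 4 hold ACAAAG, none holds ACAATG, 2 hold TGACAG and 1 holds TGATTNAT. Over all 32851 windows of equal length the shares were 16.5% for ACAAAG, 10.7% for ACAATG, 15.9% for TGACAG and 2.82% for TGATTNAT. A match is a run of letters and not evidence of binding.

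The Hoxa cluster lies on the minus strand of chromosome 6, with its listed genes between 52155367 and 52245810. Hoxa6, a gene of thoracic patterning, had 12 counts (0.411 CPM) in PreASKO cells and 63 counts (1.67 CPM) in floxed cells, all raw, and was 4.06-fold lower in PreASKO, with a ratio of 0.246 (0.121 to 0.461). Hoxa5, known for lung development and for higher levels in intra-abdominal fat, had 44 counts (1.51 CPM) in PreASKO cells and 107 counts (2.84 CPM) in floxed cells, a ratio of 0.531 (0.365 to 0.762). By library totals both were lower in PreASKO beyond counting error. Scaled to stroma, Hoxa6 stayed lower, at a log2 ratio of -1.23, while that of Hoxa5 was -0.12 (-0.66 to 0.40) and held equal levels.

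Smaller differences were seen at Hoxa3 and Hoxa7. Hoxa3, required for the thymus and parathyroid glands, had 36 counts in PreASKO cells and 78 in floxed cells, a ratio of 0.597 (0.390 to 0.896). Hoxa7 had 76 counts in PreASKO cells and 143 in floxed cells, a ratio of 0.687 (0.513 to 0.914). All counts of both genes were repeat-distributed. Scaled to stroma, both turned to the other side of equal, at log2 ratios of 0.051 for Hoxa3 and 0.25 for Hoxa7, with intervals that hold equal levels. Other members had intervals that hold equal levels by library totals. Hoxa9, a gene of blood stem cells and leukaemia as well as of patterning, had 85 counts (2.91 CPM) in PreASKO cells and 106 counts (2.81 CPM) in floxed cells, a ratio of 1.04 (0.770 to 1.39). Hoxa2 had 55 counts in PreASKO cells and 74 in floxed cells, a ratio of 0.961 (0.665 to 1.38). Hoxa10, known from uterine development, had 40 counts in PreASKO cells and 60 in floxed cells, a ratio of 0.862 (0.563 to 1.31). The kinds of count differed for Hoxa10. Its raw counts were 4 in PreASKO cells and 20 in floxed cells, and its repeat-distributed counts 36 in PreASKO cells and 40 in floxed cells. Hoxa4, with 13 counts in PreASKO cells and 10 in floxed cells, and Hoxa11, with 1 count in PreASKO cells and 2 in floxed cells, were too low to compare.

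The Hoxb cluster, on chromosome 11 between 96271330 and 96368254, was low throughout, and no member exceeded 0.960 CPM in PreASKO cells or 1.62 CPM in floxed cells. Hoxb3, a hindbrain gene, had 2 counts (0.0686 CPM) in PreASKO cells and 37 counts (0.981 CPM) in floxed cells, all repeat-distributed, a ratio of 0.0699 (0.00816 to 0.271). In GENCODE M21, 52.9% of its exonic bases are also exonic on the opposite strand, and since no source used here says whether counting used strand, its reads cannot be told from those of antisense genes. Hoxb7 had 25 counts (0.857 CPM) in PreASKO cells and 61 counts (1.62 CPM) in floxed cells, a ratio of 0.530 (0.319 to 0.856). Hoxb9, a gene of the thoracic skeleton, had 7 counts (0.240 CPM) in PreASKO cells and 25 counts (0.663 CPM) in floxed cells, a ratio of 0.362 (0.132 to 0.861). Scaled to stroma, the log2 ratios of Hoxb7, at -0.12 (-0.85 to 0.57), and of Hoxb9, at -0.67 (-2.12 to 0.58), held equal levels. Hoxb2 had 28 counts in PreASKO cells and 39 in floxed cells, a ratio of 0.928 (0.550 to 1.55) that holds equal levels.

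The other 5 Hoxb members had fewer than 20 counts in either library. Hoxb6 had 2 counts in PreASKO cells and 17 in floxed cells, a ratio of 0.152 (0.0170 to 0.641). Scaled to stroma, the log2 ratio of Hoxb6, at -1.92 (-5.08 to 0.15), held equal levels. The blood stem cell gene Hoxb4 had 7 counts in each library. Hoxb5 had 13 counts in PreASKO cells and 10 in floxed cells, and Hoxb8, known from mouse myeloid progenitors, had 17 in PreASKO cells and 13 in floxed cells. Hoxb1, a gene of the hindbrain, had 4 counts in PreASKO cells and 0 in floxed cells, a ratio whose exact interval begins at 0.853 and so holds equal levels. The authors' deposited table gives Hoxb1 a fold of 259.7.

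Read across clusters, some paralogue groups were on 1 side of equal in every listed member. In group 6, Hoxa6, Hoxb6 and Hoxc6 were all lower in PreASKO, with summed levels of 4.63 CPM in PreASKO cells and 14.1 CPM in floxed cells, a ratio of 0.327 (0.269 to 0.396). Without Hoxc6, which holds most of these counts, the ratio was 0.226 (0.118 to 0.402), and scaled to stroma the log2 ratio of the whole group was -0.81 (-1.10 to -0.54). In group 3, Hoxa3, Hoxb3 and Hoxd3 were all lower by library totals, with a summed ratio of 0.305 (0.208 to 0.437), although the log2 ratio of Hoxa3 was 0.051 when scaled to stroma. Without Hoxd3 the group 3 ratio was 0.427 (0.288 to 0.621), and scaled to stroma its log2 ratio of -0.43 (-1.001 to 0.11) held equal levels.

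Group 4 ran the other way. Hoxa4, Hoxb4, Hoxc4 and Hoxd4 each had a ratio above 1, although the intervals of Hoxa4 and Hoxb4 hold equal levels, and together they had 161 counts (5.52 CPM) in PreASKO cells and 115 counts (3.05 CPM) in floxed cells, a ratio of 1.81 (1.42 to 2.32). Without Hoxd4 the ratio was 1.53 (1.12 to 2.11). Of the counts then left, Hoxc4 held 70 of 90 in PreASKO cells and 59 of 76 in floxed cells, all repeat-distributed. Group 9 was mixed within itself, with Hoxd9 higher, Hoxa9 at a ratio of 1.04 and Hoxb9 and Hoxc9 lower, and the interval of its sum, at a ratio of 0.978 (0.817 to 1.17), holds equal levels. By library totals, groups 2, 5, 8 and 10 had summed ratios of 0.949, 0.772, 0.926 and 1.14 with intervals that hold equal levels. Scaled to stroma, the log2 ratios of groups 2, 5, 8, 9 and 10 were 0.72, 0.42, 0.69, 0.76 and 0.99. Their intervals then lay above equal levels. Group 7 had a ratio of 0.640 (0.499 to 0.816) by library totals that turned to a log2 ratio of 0.15 when scaled to stroma.

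**Figure D3:**
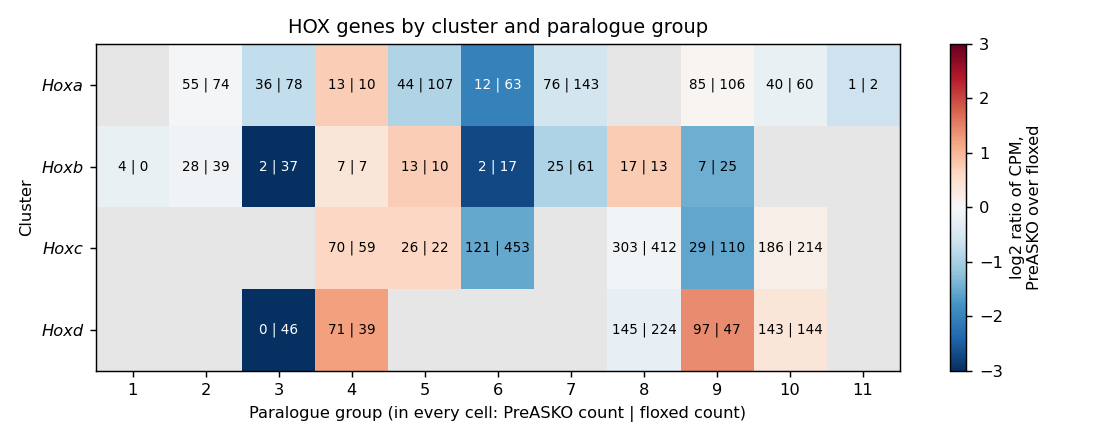
Cells are HOX genes arranged by cluster (rows) and paralogue group (columns), coloured by the log2 ratio of CPM, PreASKO over floxed, with the PreASKO count left of the floxed count in each cell and grey where no gene is shown. Hoxd3 and Hoxb1, each at 0 in 1 library, are coloured by the limit of their interval. On the scale of library totals, groups 3 and 6 are blue in each cluster where they hold a gene, and group 4 is red in every cluster. On the stroma scale Hoxa3 in group 3 would turn red.

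Summed by region of the clusters, the ratio was lowest at the head side. Groups 1 to 3 summed to 4.35 CPM in PreASKO cells and 8.33 CPM in floxed cells, a ratio of 0.523 (0.422 to 0.644). Groups 4 to 8 summed to 32.4 CPM in PreASKO cells and 43.5 CPM in floxed cells, a ratio of 0.745 (0.687 to 0.807). Groups 9 to 11 summed to 20.2 CPM in PreASKO cells and 18.8 CPM in floxed cells, a ratio of 1.07 (0.961 to 1.20). The step between the central and posterior sums depends on few genes. Without Hoxc6 the central ratio was 0.897 (0.820 to 0.981), and without Hoxd9 the posterior ratio was 0.960 (0.853 to 1.08). Without Hoxd3 the ratio of groups 1 to 3 was 0.612 (0.492 to 0.759), and scaled to stroma its log2 ratio was 0.089. Scaled to stroma, the 3 log2 ratios were -0.14 (-0.45 to 0.16), 0.37 (0.25 to 0.49) and 0.90 (0.74 to 1.06), in the same order but with the central and posterior sums higher in PreASKO.

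**Figure D4:**
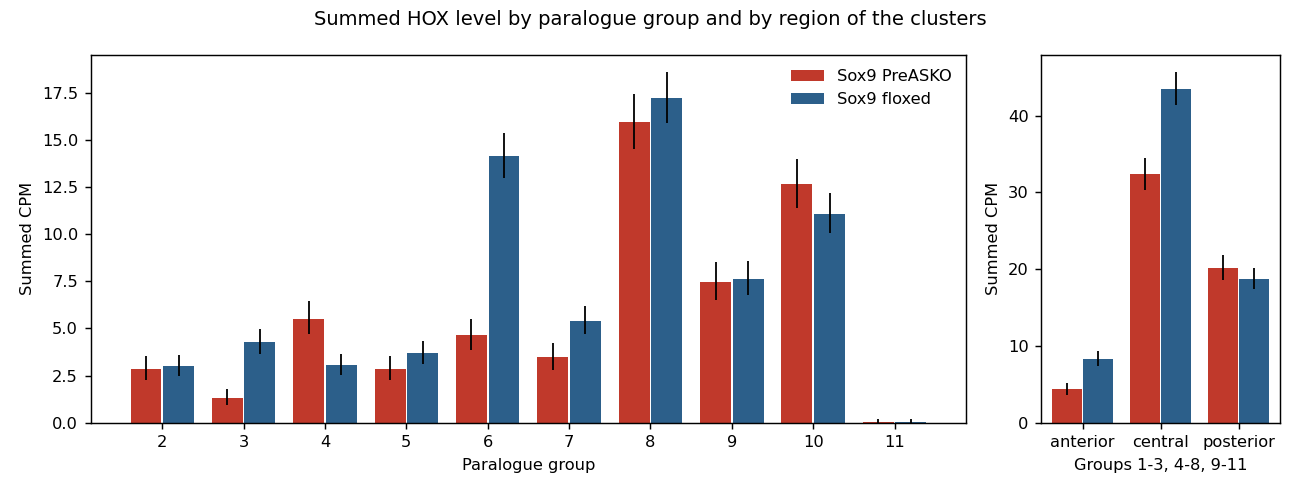
Bars are summed HOX levels in CPM for paralogue groups 2 to 11 (left) and for groups 1 to 3, 4 to 8 and 9 to 11 (right), PreASKO in red left of floxed in blue, with exact 95% counting intervals. Group 6 shows the widest gap, at 4.63 CPM in PreASKO cells and 14.1 CPM in floxed cells, and group 8 the highest level in both libraries.

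Of the 30 members, 23 had 20 or more counts in the larger library. Of these 23, 7 were 2-fold or more lower in PreASKO (among them Hoxa6, Hoxb3, Hoxb9, Hoxc6, Hoxc9 and Hoxd3), beside 15.1% of all 17114 genes with that many counts, and 2 were 2-fold or more higher (Hoxd4 and Hoxd9), beside 7.37%. Low genes vary more, and among the 8383 genes between 20 counts and the 453 of the highest HOX gene the shares were 27.6% lower and 13.7% higher. The HOX shares, 30.4% lower and 8.70% higher, are near that background. Counting intervals lay wholly below equal levels for 11 of the 23 and above for 4 by library totals, and for 6 and 10 when scaled to stroma. The corresponding shares by library totals were 40.1% and 34.3% over all genes and 41.2% and 27.4% over the 8383. On the stroma scale no such shares were computed, and the median log2 ratio over all 17114 genes is itself 0.75 there.

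The middle of the distribution was like that of other low genes too. The median log2 ratio of the 23 members was -0.26, beside -0.051 over all 17114 genes and -0.22 over the 8383. It turned to 0.54 when scaled to stroma, where the medians were 0.75 over all 17114 genes and 0.58 over the 8383. The interquartile range was 1.61 log2 units for the 23 members and 1.61 for the 8383, beside 0.892 for all genes. The count of 7 was 4 with raw counts alone, 3 with repeat-distributed counts alone, 4 when scaled to stroma and 2 on the log2(CPM + 1) scale. The count of 2 higher members was 5 when scaled to stroma and 0 on the log2(CPM + 1) scale and in repeat-distributed counts alone.

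Levels of different genes were compared per kilobase of the longest protein-coding transcript in GENCODE M21. In floxed cells the order began with Hoxc6 at 7.60 CPM per kb (6.92 to 8.33), Hoxc8 at 5.85 (5.30 to 6.44), Hoxc10 at 2.97 (2.59 to 3.399), Hoxd8 at 2.26 (1.97 to 2.57) and Hoxd10 at 2.10 (1.77 to 2.48). Hoxc6 and Hoxc8 stood apart beyond counting error, and Hoxd8 and Hoxd10 did not. In PreASKO cells Hoxc8 came first at 5.56 CPM per kb (4.95 to 6.22), then Hoxc10 at 3.34 (2.88 to 3.86), Hoxd10 at 2.70 (2.28 to 3.18), Hoxc6 at 2.62 (2.18 to 3.13) and Hoxd8 at 1.89 (1.59 to 2.22). By their values the same 5 genes of Hoxc and Hoxd thus led in both libraries, and Hoxc6 stood 4th in PreASKO cells and 1st in floxed cells. Counting error does not set the 5th gene apart from the 6th. The 6th was Hoxd9 at 1.56 (1.26 to 1.90) in PreASKO cells and Hoxa6 at 1.91 (1.47 to 2.45) in floxed cells. Hoxd9 stood 6th in PreASKO cells and 17th in floxed cells, and Hoxa6 17th in PreASKO cells and 6th in floxed cells. Over the 30 members the rank correlation of counts between the libraries was 0.78, a description only, since all members share the same libraries.

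HOX proteins bind DNA together with the TALE homeodomain proteins of the Meis, Pbx and Pknox families. Of 9 such genes 8 had 20 or more counts. Of these, 6 were lower and 2 higher in PreASKO by library totals, and 4 and 4 when scaled to stroma. Over all genes with 20 or more counts, 53.4% were lower by library totals. Scaled to stroma, the median log2 ratio was 0.35 for the 8 and 0.75 over all such genes. By library totals 2 of the 8 were past 2-fold, both lower. The share past 2-fold lower was 15.1% over all genes with 20 or more counts and 27.6% over the 8383 genes described above. Pknox2 was 1 of the 2, with 35 counts in PreASKO cells and 99 in floxed cells, a ratio of 0.457 (0.302 to 0.678). Meis1, which the series title names, had 130 counts (4.46 CPM) in PreASKO cells and 335 counts (8.88 CPM) in floxed cells, a ratio of 0.502 (0.406 to 0.616). The authors' deposited table gives Meis1 a fold of 0.379, which is past 2-fold. Scaled to stroma, the log2 ratios of Meis1, at -0.20 (-0.50 to 0.097), and of Pknox2, at -0.33 (-0.93 to 0.24), held equal levels.

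Polycomb proteins keep HOX genes silent outside their domain, and trithorax proteins keep them active. The 16 Polycomb genes, 8 lower and 8 higher by library totals and 1 lower and 15 higher when scaled to stroma, had a median log2 ratio of 0.0021 by library totals. Cbx2, a chromobox subunit that reads the Polycomb histone mark, had 29 counts in PreASKO cells and 114 in floxed cells, a ratio of 0.329 (0.211 to 0.498), while the methyltransferase gene Ezh1 had a ratio of 1.39 (1.30 to 1.48). Of the 11 trithorax and boundary genes, 9 were lower and 2 higher by library totals, and all were higher when scaled to stroma. Their median log2 ratio was -0.40 by library totals, where none was past 2-fold. Over all genes with 20 or more counts, 53.4% were lower by library totals. Scaled to stroma, the median was 0.80 for the Polycomb genes and 0.40 for the trithorax and boundary genes, beside 0.75 over all such genes. Ash1l, a histone methyltransferase gene, had a ratio of 0.666 (0.629 to 0.705), the adaptor gene Wdr5 0.698 (0.573 to 0.849) and Dot1l 0.733 (0.689 to 0.779). Of the Cdx genes and other ParaHox genes, Cdx2, an activator of HOX genes in the early embryo, was the 1 of 6 listed, with 4 counts in PreASKO cells and 0 in floxed cells. Noncoding RNAs of the HOX clusters were near the limit of detection, with 4 of 17 listed and sums of 9 counts in PreASKO cells and 17 in floxed cells.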

How the data were processed

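RNA-seq libraries of polyA RNA were analysed from 1 Sox9 PreASKO and 1 Sox9 floxed pool. Per the file headers, the authors deposited for every gene its raw count, an estimated count distributed over repeats, a fold ratio and the log2 of that fold. The submitters' processing notes name mm10 as the build. Neither aligner nor counter is named in the sources used here. Repeat-distributed columns made up 50.6% of PreASKO and 49.1% of floxed counts. Of the 30 members, 15 had raw counts alone, 6 repeat-distributed counts alone and 9 both.

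Both kinds were summed and divided by the library total. Ratios carry no pseudocount, a count of 0 was given its exact limit and a floor of 3, and intervals are exact (Poisson or Clopper-Pearson, 95%). These cover counting error only, since no molecular identifiers are named. Repeat-distributed counts are estimates, and the summed counts were rounded to whole numbers for the intervals. Any error in that estimate is not covered. Alternatives used TMM in edgeR 4.0.16 and size factors in DESeq2 1.42.0 under R 4.3.3, and the calculation, in Python 3.11.15, was tested on simulated data. Members and lists were chosen with earlier results of these data known. Members are named, with the 3 largest log2 ratios per other list of genes with 20 or more counts where that list is described, and a few genes are not reported here. Mouse HOX genes other than those listed were not analysed here.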

Additional observations from a re-analysis of the deposited data

How the results depend on the processing

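With TMM or median-of-ratios scaling, or totals without mitochondrial and haemoglobin genes, 7 members were past 2-fold lower and 2 higher, and the cluster sums and the 28 member ratios with counts in both libraries moved by less than their counting intervals. Under the last of these the intervals of Hoxd and Hoxd10 came to hold equal levels and that of Hoxd8 came to lie below them. A pseudocount of 0.1 gave the same counts. Scaled to stroma, 4 members were past 2-fold lower and 5 higher, the median log2 ratio was 0.54, and the log2 ratios were 0.48 for all HOX, 0.26 for Hoxa, 0.17 for Hoxb, 0.38 for Hoxc, 1.03 for Hoxd, 0.051 for Hoxa3 and 0.25 for Hoxa7. This adds 0.80 to every log2 ratio by construction, and 5 of 11 intervals below equal levels came to hold them (Hoxa3, Hoxa5, Hoxa7, Hoxb7 and Hoxb9). Raw counts alone left 13 members, of which 4 were lower, a median of -0.031, and log2 ratios of -0.077 for all HOX, -0.067 for Hoxc and 0.80 for Hoxd. Of 20 members with a ratio in raw counts alone, 4 fell outside the counting interval of their summed counts (Hoxa10, Hoxc6, Hoxd8 and Hoxd10). Repeat-distributed counts alone left 11, with 3 lower and 0 higher and log2 ratios of -0.56 for all HOX, -1.10 for Hoxc and -0.054 for Hoxd. On the log2(CPM + 1) scale 2 members were lower and 0 higher, and a minimum of 100 counts left 9 members with 2 lower and 0 higher. The authors' deposited table gave a median log2 fold of -0.45. Without Hoxc6, a choice made after the data were seen, the log2 ratios were -0.15 for all HOX and -0.042 for Hoxc. Sums without Hoxd3, Hoxd4 or Hoxd9 were also chosen then. No replicate could be left out. No paired analysis was possible because each group has 1 library.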

Other observations

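Transcription factors outside the clusters that mark body regions were listed for 15 of 16 genes, of which 11 had 20 or more counts. Of these, 7 were lower and 4 higher in PreASKO by library totals, and 4 were lower and 7 higher when scaled to stroma. Over all genes with 20 or more counts, 53.4% were lower by library totals. Scaled to stroma, the median log2 ratio was 0.27 for the 11 and 0.75 over all such genes. Tbx5, a forelimb and heart gene, had 46 counts in PreASKO cells and 135 in floxed cells, a ratio of 0.440 (0.308 to 0.620). Its relative Tbx4, a hindlimb gene, had 30 counts in PreASKO cells and 0 in floxed cells. By the exact interval it was at least 9.88-fold higher in PreASKO, and with a floor of 3 counts in place of 0 the value is 12.9. Emx2, a homeobox gene of the urogenital tract and shoulder blade, had 6 counts in PreASKO cells and 28 in floxed cells, a ratio of 0.277 (0.0938 to 0.682). Scaled to stroma, the log2 ratios of Tbx5, at -0.39 (-0.90 to 0.11), and of Emx2, at -1.06 (-2.62 to 0.24), held equal levels. The subcutaneous fat markers Tbx15 and Shox2, named after their values were seen, had 521 and 101 counts in PreASKO cells and 1052 and 230 counts in floxed cells. By library totals their ratios were 0.640 (0.575 to 0.712) and 0.568 (0.445 to 0.720). These are log2 ratios of -0.64 for Tbx15 and -0.82 for Shox2, to which scaling to stroma adds 0.80.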
